A study of Mus musculus with 2 samples.

Results

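Keratins, claudins and desmosome genes were followed in RNA of cells that were isolated as fibroblasts out of mouse lungs. The set was chosen by gene symbol alone: numbered keratins (Krt), claudins (Cldn), the tight junction plaque proteins Tjp, the plakophilins (Pkp) and the desmocollins and desmogleins (Dsc, Dsg), together with Ocln, Epcam, Dsp and Jup. It took 93 of 38972 gene rows. The control library came from Foxf1fl/fl mice treated with bleomycin, a drug that injures and scars the lung. The other came from mice that carry αSMA-Cre-ERT2 besides the floxed Foxf1 alleles, named myoFoxf1 KO. In these mice Cre is driven by the smooth muscle actin promoter and activated by tamoxifen. Tamoxifen at 40 mg/kg on days 2, 3 and 4 is listed for both groups. Both were of the C57Bl/6 background. Weekly intratracheal bleomycin at 1 or 2 U/kg for 2 to 4 weeks is described for the series, with lungs taken 1 week after the final dose. The dose and number of weeks of these cells, their sorting and the number of animals behind a library are not given in the labels, and only the control's title names bleomycin, while the design text can be read as naming it for both. There was 1 library per genotype, so the differences below lack a replicate check and carry no p-values. By its title the series concerns FOXF1, lung fibrosis and a switch of cadherins in myofibroblasts, and the genes described here were not its subject.

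Keratins form the intermediate filaments of epithelial cells as obligate pairs of an acidic type I and a basic type II protein. Krt8 and Krt18 pair in simple epithelia such as those lining the airways and alveoli, and Krt5 pairs with Krt14 in basal cells, the stem cells at the base of the airway epithelium. Desmosomes tie these filaments to the cell surface through the cadherins Dsc and Dsg, the plaque proteins Jup and Pkp, and desmoplakin (Dsp). Claudins seal tight junctions, where the Tjp proteins and occludin (Ocln) also sit. Most of these genes mark epithelium, but Cldn5 is known as the claudin of endothelium, Cldn15 is found in mesothelium and Cldn11 and Cldn19 in myelinating cells.

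Reads assigned to genes numbered 16145959 for the control library and 15122824 for the knockout library. Levels are given as CPM (read counts scaled to a common library size, with TMM factors), and ratios as log2 of knockout over control with an exact 95% interval that covers counting error only. A gene was measured at 1 CPM in either library and 20 reads in the sum of both, and was called lower or higher at a 2-fold difference with an interval that excluded 1. Foxf1 itself had 158 control reads against 49 knockout reads, a log2 ratio of -1.27 (-1.77 to -0.81). After the correction for GC content and length described further on, the log2 ratio of Foxf1 was -0.82, less than 2-fold. The labelled cell type was present, with 9 of 9 listed fibroblast markers measured and a summed level of 1395 CPM (control) and 679 CPM (knockout). Markers of club cells summed to 8577 and 2236 CPM, those of AT2 cells (surfactant-making alveolar cells) to 8426 and 3931 CPM, and those of macrophages to 12751 and 27163 CPM, so neither library held fibroblast RNA alone. In such mixed RNA, fewer cells of a type and less RNA per cell cannot be told apart.

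Transcripts of the simple epithelial keratins and of several epithelial claudins were lower in the knockout library, several of them by more than 4-fold, while Epcam, Ocln and Cldn18 differed by less than 2-fold. That limit depends on the scaling for Epcam and Ocln, which were at -1.05 and -1.11 and called lower with scaling by total reads, and Ocln was also called after correction for GC content and length (-1.36). Cldn18 was not called under any alternative run. Of the 93 genes 37 were measured, 25 had reads below the filter and 31 had none. Among the 37, 22 were called lower, where 14.2% of the 14455 measured genes of the table were. Krt76 was called higher, as 9.37% of measured genes were. The median log2 ratio over the 37 was -1.19, against 0.01 over all measured genes, and 10 of the 37 were lower by 4-fold or more. Of the 37, 6 passed the filter through the control library alone and 1 through the knockout library alone.

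**Figure D1:**
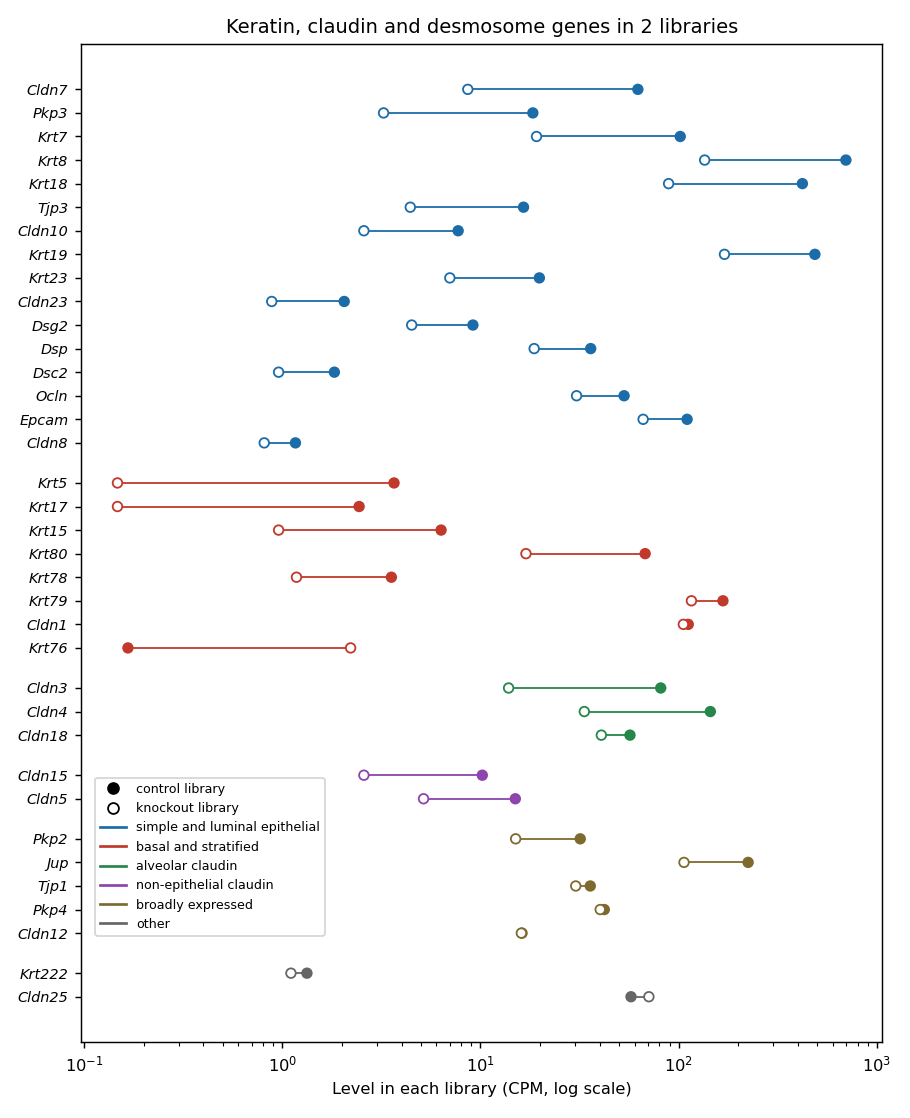
Level of 36 of the 37 measured genes in the control library (filled) and the knockout library (open), in CPM on a log scale, 1 library each, grouped by where the gene is mainly known. Krt8, Krt18 and Krt19 have the highest levels in the control, and Cldn1, Pkp4 and Cldn12 have nearly overlapping points.

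The promoters of 5 of these genes are shown because they carry the highest levels or the lowest ratios of the set, or, for Epcam, a smaller difference. Each covers 300 bases around the transcription start, is taken from RefSeq on GRCm38.p6 and is written 5′ to 3′ on the strand of the gene. Capitals mark CACCTG on either strand, the E-box bound by the repressors of the Snail and Zeb families, which are known from epithelial genes.
Krt8, chr15:102004293-102004592, minus strand: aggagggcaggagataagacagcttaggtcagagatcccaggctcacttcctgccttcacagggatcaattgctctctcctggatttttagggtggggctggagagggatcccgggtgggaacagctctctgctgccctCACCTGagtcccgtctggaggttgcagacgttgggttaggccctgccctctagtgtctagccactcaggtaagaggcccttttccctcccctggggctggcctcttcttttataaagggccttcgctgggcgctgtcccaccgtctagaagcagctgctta
Krt18, chr15:102027966-102028265, plus strand: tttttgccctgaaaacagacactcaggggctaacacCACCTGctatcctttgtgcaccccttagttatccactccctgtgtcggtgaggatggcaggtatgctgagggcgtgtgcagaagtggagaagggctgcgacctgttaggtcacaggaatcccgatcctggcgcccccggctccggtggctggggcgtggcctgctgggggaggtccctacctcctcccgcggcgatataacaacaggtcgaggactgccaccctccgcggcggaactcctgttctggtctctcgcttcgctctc
Krt5, chr15:101712856-101713155, minus strand: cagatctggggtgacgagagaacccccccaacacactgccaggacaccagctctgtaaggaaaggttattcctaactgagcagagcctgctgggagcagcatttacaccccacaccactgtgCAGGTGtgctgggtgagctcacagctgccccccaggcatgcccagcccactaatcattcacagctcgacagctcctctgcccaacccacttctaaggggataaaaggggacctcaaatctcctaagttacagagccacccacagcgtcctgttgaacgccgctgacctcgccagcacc
Cldn4, chr5:134946885-134947184, minus strand: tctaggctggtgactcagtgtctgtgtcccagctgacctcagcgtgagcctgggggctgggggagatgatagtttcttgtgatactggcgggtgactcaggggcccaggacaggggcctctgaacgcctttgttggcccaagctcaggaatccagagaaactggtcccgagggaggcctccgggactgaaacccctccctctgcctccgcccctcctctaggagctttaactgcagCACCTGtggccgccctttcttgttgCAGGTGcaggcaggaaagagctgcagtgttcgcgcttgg
Epcam, chr17:87635729-87636028, plus strand: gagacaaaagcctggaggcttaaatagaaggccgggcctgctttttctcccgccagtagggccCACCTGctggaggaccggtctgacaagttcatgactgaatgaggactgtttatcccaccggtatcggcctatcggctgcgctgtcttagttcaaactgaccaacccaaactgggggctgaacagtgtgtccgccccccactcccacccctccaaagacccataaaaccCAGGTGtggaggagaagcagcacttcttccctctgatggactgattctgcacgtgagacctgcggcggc
Promoters were found in the RefSeq table for 24 of the 37 measured genes, some with several starts. CACCTG was present in a promoter of 15 of the 24 genes, and in 17 of their 32 promoters (53.1%), against 20.2% of 32851 promoters of the same length. Promoters of these genes were richer in G and C, with a median of 60.7% against 52.7%, and the comparison differed between GC ranges. The letters were in 1 of 3 of theirs and 16.9% of all below 50% GC, and in 1 of 4 and 23.5% from 50 to 55%. From 55 to 60% they were in 5 of 8 and 24.9%, from 60 to 65% in 6 of 9 and 22.5%, and from 65% in 4 of 8 and 19.2%. Of the 15 genes with the letters 10 were called lower, at a median log2 ratio of -1.89, and of the 9 genes without them 4 were, at a median of -0.48. Over all measured genes with a promoter in the table, 18.1% of 2237 genes with the letters and 11.6% of 8181 without them were called lower. After correction for GC content and length, 9 of the 15 and 2 of the 9 were called lower, at medians of -1.31 and -0.64. Over all measured genes with a promoter the shares were then 12.5% with the letters and 8.62% without them. Of the genes lower by 4-fold or more, 7 have a promoter in the table. These are Cldn7, Krt7, Krt8, Krt18, Krt5, Cldn3 and Cldn4, and all carry the letters. They were picked by their ratio, so this is no test of the letters. Pkp3, Krt17 and Krt15, also lower by 4-fold or more, have no promoter in the table. With the same correction Krt8 (-1.66), Krt18 (-1.57), Cldn4 (-1.43) and Cldn3 (-1.31) were no longer lower by 4-fold. Epcam and Ocln have a promoter with 2 copies and Krt79 has 1, and none of these was called under the main settings. Ocln was called lower after the correction (-1.36), and both Epcam and Ocln were with scaling by total reads. With few genes of the set in each class, these counts are a description. The GC box GGGCGG was in 15 of the 24 genes and in 35.7% of all promoters, and the TATA box TATAAA in Krt8 and Krt76 and in 13.6% of all. The AP-1 letters TGANTCA were found in Cldn4 and Cldn15, against 7.81% of all, and the grainyhead-like letters AACCNGTT in Cldn5, against 2.09%. A match of letters is a description and not a binding site.

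The simple epithelial keratins had the highest levels. Krt8, a type II keratin at chr15:101996711-102004342 on GRCm38, had 12562 control reads (697 CPM) against 1833 knockout reads (135 CPM), a log2 ratio of -2.37 (-2.44 to -2.30). Its type I partner Krt18, which lies 23.9 kb away, had 7578 reads (421 CPM) and 1206 (89.0 CPM), a log2 ratio of -2.24 (-2.33 to -2.15). The pair therefore differed to a like degree, and its ratio of FPKM, a level per length, was 1.29 in the control and 1.18 in the knockout. Krt7, the type II keratin of ducts, bladder and mesothelium, went from 102 to 19.2 CPM at a log2 ratio of -2.41 (-2.60 to -2.22). Krt19, a type I keratin of ducts, airways and mesothelium, stood at 487 and 170 CPM with a log2 ratio of -1.52 (-1.58 to -1.45), an interval that does not meet that of Krt18. Krt23, another type I keratin, had 357 and 95 reads, at -1.50 (-1.84 to -1.17). Krt20, the keratin of gut and urothelium, had 1 and 2 reads.

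Per unit of gene length, the keratins of the control library were led by Krt8 at 431 FPKM, Krt18 at 335 and Krt19 at 293 in the authors' deposited values. In the knockout library the order was Krt19 at 82.2 FPKM, Krt8 at 67.1, Krt18 at 56.9 and Krt79 at 44.8. Krt79, a type II keratin known from the canal of mouse hair follicles, thus made up 6.65% of the summed keratin FPKM in the control and 16.8% in the knockout. Type I keratins summed to 650 FPKM (control) and 144 FPKM (knockout), and type II keratins to 557 and 121, so the type I sum was the higher in both libraries. The deposited FPKM of Krt7 rests on a length of 7055 bases, where its longest GENCODE transcript has 4094. Its control level of 16.1 FPKM would be 27.7 on the latter length, still below Krt8, Krt18 and Krt19.

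**Figure D2:**
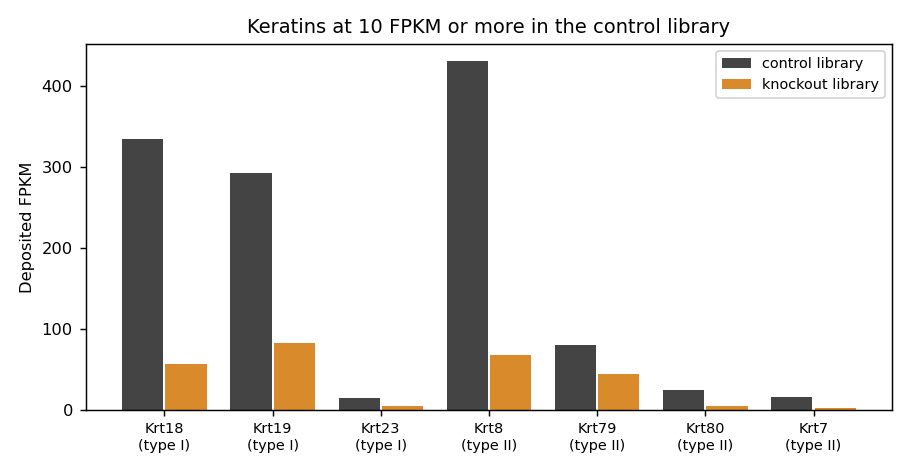
Deposited FPKM of the 7 keratins at 10 FPKM or more in the control library, with bars for the control and the knockout library (1 library each, no error bars), ordered by keratin type. Krt8 is the highest in the control at 431 FPKM and Krt19 in the knockout at 82.2 FPKM.

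Keratins of basal cells were low in the control and near absent in the knockout. Krt5 had 66 control reads (3.66 CPM) against 2 knockout reads (0.148 CPM), a log2 ratio of -4.37 (-7.71 to -2.72), the lowest of the set on this scale. Krt17, a type I keratin of basal and injured epithelium, had 44 and 2 reads, a log2 ratio of -3.79 (-7.14 to -2.11). Krt15, also of basal cells, had 114 and 13 reads, a log2 ratio of -2.68 (-3.68 to -1.89). All 3 passed the filter through the control library alone, so a higher control level is part of how they were admitted. The intervals of their ratios overlap one another. These ratios rest on few knockout reads and on the prior count: on the log2 scale of FPKM plus 1, Krt5 was at -1.44, Krt17 at -1.32 and Krt15 at -1.75, and Cldn7, at -2.88, was the lowest of the set. Krt14, the partner of Krt5, had 18 and 2 reads and did not pass the filter. Krt6a, a keratin of wounded epithelium, had 2 and 6 reads, and Krt6b had no read after rounding. Krt13, known from squamous patches of the airway called hillocks, had 11 control reads and no knockout read, and did not pass the filter. With 3 reads set as the floor of the knockout library, the difference was 2.76-fold. The exact interval of its log2 ratio reached up to -0.92, a smaller difference. Krt4, its usual type II partner, had 15 and 3 reads. A count of 0 allows up to 3 reads, or 0.167 CPM (control) and 0.221 CPM (knockout). Krt14, Krt16 and Krt17 are closely similar neighbours, as are Krt6a and Krt6b, so their estimated reads may be split between copies.

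Basal cell markers outside the set differed among themselves. Their summed level was 764 and 558 CPM in control and knockout, with 4 of 6 measured and 2 called lower. Most of this sum was Icam1, an adhesion molecule that many cell types express, at 552 and 510 CPM (a log2 ratio of -0.12), and the other 5 summed to 212 and 48.2 CPM. Sfn, which made up most of the remainder and is a 14-3-3 protein of epithelium, went from 206 to 44.3 CPM, and Aqp3, a water and glycerol channel, had 59 and 15 reads. Trp63, the transcription factor that defines basal cells, had 4 control reads and 3 knockout reads. Ngfr, a surface marker of basal cells that nerve cells also express, had 33 and 36 reads, and Col17a1 had 14 and 0. The desmosome genes of stratified epithelium were near 0 as well, with no read of Dsc1, Dsc3, Dsg3 or Dsg4 in either library after rounding and 1 and 4 reads of Pkp1.

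Other keratins of stratified epithelia held both called directions. Krt80, a type II keratin of many epithelia, stood at 67.7 and 17.0 CPM, a log2 ratio of -2.0 (-2.21 to -1.79), and Krt78 had 64 and 16 reads at a log2 ratio of -1.56 (-2.48 to -0.78). Krt79 had 3012 and 1572 reads (167 and 116 CPM), a log2 ratio of -0.53 (-0.62 to -0.44) that was not called. Krt76, a type II keratin of the palate and oral mucosa, had 3 control reads against 30 knockout reads, a log2 ratio of 3.50 (2.05 to 6.09), and lies in the same cluster on chromosome 15. It was the gene of the set with the highest ratio, at a level of 2.21 CPM in the knockout. Keratins of hair and of the inner root sheath were not measured in any of 23 rows, and 17 of these had no read. Krt36 was among the 6 with reads, at 12 control reads and 1 knockout read, and Krt83 had 12 and 7. The epidermal keratins Krt1 and Krt10 had 15 and 5 and 17 and 7 reads, Krt16 had 6 and 2, the corneal Krt12 had 3 and 0 and Krt42 had 1 and 0. Krt2, Krt9, Krt24 and Krt77 had none.

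Keratin genes lie in a type I cluster of 27 rows on chromosome 11 and a type II cluster of 24 rows on chromosome 15, which also holds Krt18. On chromosome 11, 5 keratins were measured and 4 were called lower, and Krt222, a keratin-like gene with 24 and 15 reads, was the exception. On chromosome 15, 8 were measured, 6 were lower, Krt76 was higher and Krt79 was not called. The summed level was 520 and 180 CPM (control and knockout) in the first cluster and 1465 and 381 CPM in the second.

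Claudins of the alveolar and airway epithelium differed widely among themselves. Cldn4, a sealing claudin known to rise in injured alveolar cells, had 2601 control reads (144 CPM) against 453 knockout reads (33.4 CPM), a log2 ratio of -2.11 (-2.26 to -1.97). Cldn3, which lies 39.3 kb from it on chromosome 5 and is a main claudin of AT2 cells, stood at 81.2 and 13.9 CPM, a log2 ratio of -2.55 (-2.78 to -2.33). Cldn18, whose lung isoform is the alveolar claudin, had 1023 and 552 reads (56.8 and 40.7 CPM), a log2 ratio of -0.48 (-0.63 to -0.33), and was not called. Its interval lies apart from those of Cldn3 and Cldn4, and the FPKM of Cldn4 over Cldn18 was 6.26 in the control and 2.02 in the knockout. After correction for GC content and length, which removes the trends described further on, the log2 ratios lay closer together, at -1.31 for Cldn3, -1.43 for Cldn4 and -0.66 for Cldn18. Beside these, AT2 markers had a median log2 ratio of -0.58 with 2 of 6 called lower, and AT1 markers, those of the flat gas-exchange cells, a median of -0.65 with 2 of 5 measured lower and Pdpn higher. Pdpn went from 88.2 to 477 CPM and is also expressed by macrophages and stromal cells.

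Cldn7, a claudin of the side membrane of airway and other simple epithelia, had 1121 control reads (62.2 CPM) against 117 knockout reads (8.63 CPM). Its log2 ratio of -2.85 (-3.14 to -2.57) was the lowest among claudins, and only 0.533% of measured genes had a lower one. Cldn10, an ion-pore claudin of airway secretory cells, had 139 and 35 reads at a log2 ratio of -1.57 (-2.16 to -1.04). Cldn23 had 37 and 12 reads at -1.19 (-2.29 to -0.24), and Cldn8, a claudin of kidney tubules, had 21 and 11 reads at -0.51 (-1.72 to 0.59). Cldn1, the claudin of the skin barrier, had 2013 and 1431 reads (112 and 106 CPM), a log2 ratio of -0.08 (-0.18 to 0.02). Of the summed claudin FPKM, Cldn1 thus made up 12.7% (control) and 28.4% (knockout), while Cldn4 made up 29.5% and 16.1%. Without the row Cldn25, whose identifier belongs to another gene, the shares of Cldn1 were 13.9% and 37.4% and those of Cldn4 32.2% and 21.3%. Club and ciliated cell markers had median log2 ratios of -2.0 and -1.95, and 6 of 6 of each list were called lower. The part of these airway cells in the ratios of Cldn7 and Cldn10 was not tested.

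Claudins known from endothelium, mesothelium, myelinating cells or blood-forming tissue had low levels and are given beside markers of some of those cells. They form the group named non-epithelial claudins, a loose name for Cldn15, since mesothelium expresses keratins too. Cldn5 had 270 control reads (15 CPM) against 70 knockout reads (5.16 CPM), a log2 ratio of -1.53 (-1.94 to -1.15), while endothelial markers had a median of -0.97 with 4 of 10 lower and a summed level of 303 and 167 CPM. Cldn15 had 184 and 35 reads, a log2 ratio of -1.97 (-2.55 to -1.46), beside mesothelial markers at a median of -1.75 with 7 of 7 lower and sums of 239 and 56.1 CPM. Krt7, Krt8, Krt18 and Krt19 are also expressed in mesothelium, and the part of that cell type in their ratios was not tested. Cldn11 had 7 and 5 reads and Cldn19 had 3 and 6. Cldn13, the claudin of mouse blood-forming tissue, had no read although globin genes were abundant, with erythroid markers at a summed 1989 CPM (control) and 738 CPM (knockout).

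The row named Cldn25 has the identifier ENSMUSG00000022744, which the GENCODE table names Cldnd1, a claudin-domain gene expressed in many cell types. It stood at 57.5 and 70.7 CPM with a log2 ratio of 0.30 (0.17 to 0.43), and with scaling by total reads alone at -0.02. Of the claudins known mainly from other organs, Cldn2 had 6 and 4 reads, Cldn22 had 5 and 2, Cldn24 had 2 and 0, Cldn6 had 1 and 2, and Cldn9 had 0 and 1. Cldn14, Cldn16, Cldn17 and Cldn20 had none in either library, and Cldn26 had 0 and 2.

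**Figure D3:**
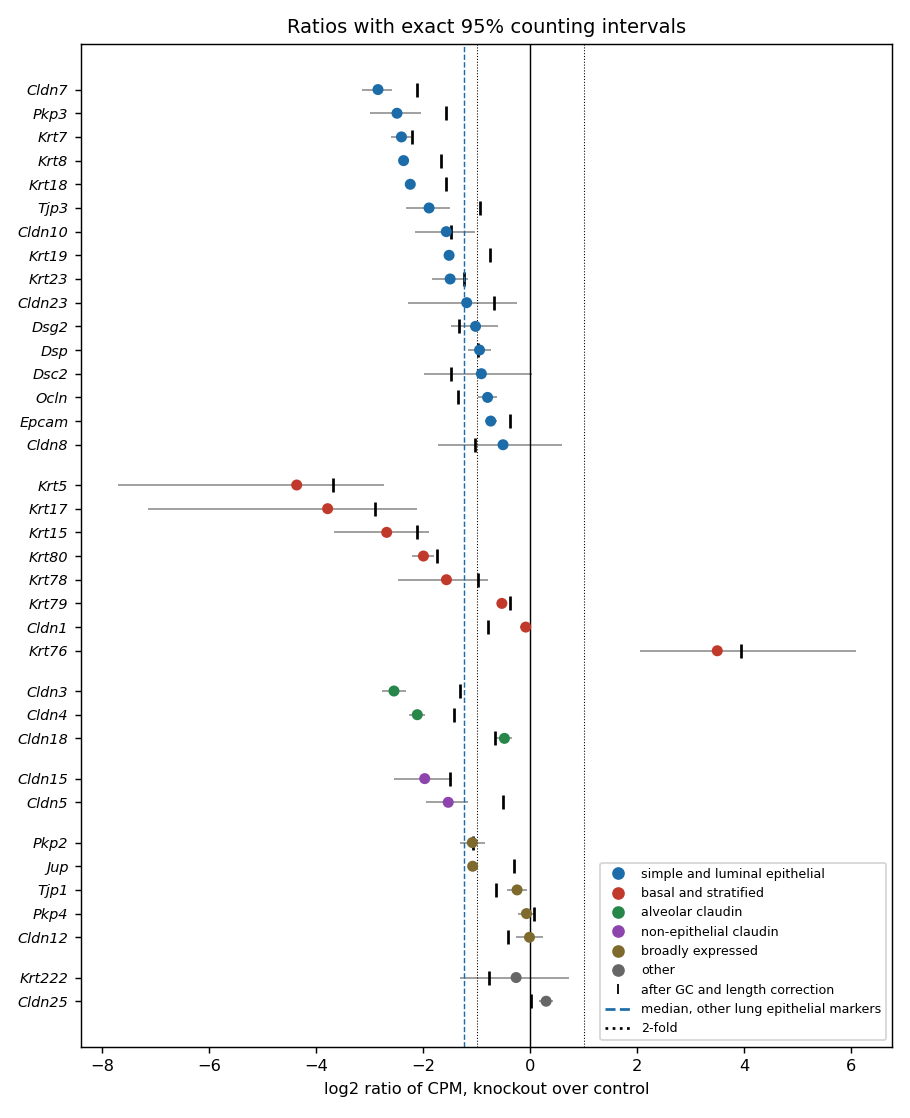
The log2 ratio of CPM, knockout over control, of 36 of the 37 measured genes with the exact 95% interval of counting error (grey lines), the value after correction for GC content and length (black ticks), the 2-fold limits (dotted) and the median of other lung epithelial markers at -1.24 (dashed). Krt5, Krt17, Cldn7 and Krt15 lie farthest to the left and Krt76 alone lies beyond 2-fold on the right.

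Desmosome genes spread from the epithelial plakophilin to the broadly expressed ones. Pkp3, the plakophilin of epithelia, had 331 control reads (18.4 CPM) against 44 knockout reads (3.25 CPM), a log2 ratio of -2.49 (-2.99 to -2.04). Pkp2, which heart, mesothelium and simple epithelia share, had 574 and 204 reads at -1.08 (-1.32 to -0.85). Pkp4, a broadly expressed relative that also binds classical cadherins, had 759 and 545 reads at -0.07 (-0.23 to 0.09). The intervals of the 3 plakophilins do not overlap before correction for GC content and length. After it the log2 ratios were -1.58 for Pkp3, -1.07 for Pkp2 and 0.07 for Pkp4. The intervals of Pkp3 and Pkp2, shifted by the correction, overlap. Jup, plakoglobin, which also joins adherens junctions in endothelium, stood at 224 and 106 CPM at -1.07 (-1.16 to -0.99). Of the desmosomal cadherins, Dsg2 had 165 and 61 reads at -1.02 (-1.47 to -0.59) and Dsc2 had 33 and 13 at -0.91 (-1.98 to 0.03). Dsp, which anchors keratin at the plaque, had 648 and 253 reads at -0.95 (-1.16 to -0.74), just inside the 2-fold limit.

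Among the other tight junction and surface genes, Tjp3, the epithelial member of its family, had 297 and 60 reads at a log2 ratio of -1.89 (-2.32 to -1.49). Tjp3 overlaps Apba3 on the opposite strand, which had 461 and 180 reads, and the library kit does not mark strand, so reads in the overlap cannot be assigned to one of them. Tjp1, which is found in most cells with cadherin junctions, had 645 and 410 reads at -0.24 (-0.43 to -0.06). Cldn12, another broadly expressed gene, had 292 and 218 reads at -0.01 (-0.27 to 0.25). Epcam, an adhesion protein of nearly all simple epithelia, had 1986 and 897 reads (110 and 66.2 CPM) at -0.74 (-0.85 to -0.62), and Ocln had 955 and 414 (53.0 and 30.5 CPM) at -0.80 (-0.97 to -0.63). The FPKM of Krt8 over Epcam was 7.15 in the control and 2.31 in the knockout, so the difference was not of 1 size across epithelial genes.

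By group, the 16 measured simple and luminal genes had a median log2 ratio of -1.51 with 11 lower, and the 8 measured basal and stratified genes -1.78 with 5 lower and Krt76 higher. Of these 8, Krt5, Krt17 and Krt15 were measured through the control library alone and Krt76 through the knockout library alone, so their difference is part of how they were admitted. At 10 CPM or more 3 of the basal and stratified group were left, Krt80, Krt79 and Cldn1, with a median of -0.53. The group is named by where its genes are mainly known, and which cells their reads came from was not tested. Of the 16 simple and luminal genes, Cldn23, Dsc2 and Cldn8 were measured through the control library alone, and Cldn23 was called lower. At 10 CPM or more 11 of these 16 were left, with a median of -1.89. The 3 alveolar claudins had a median of -2.11 with 2 lower, and the 6 broadly expressed genes -0.27 with Jup and Pkp2 lower. Lung epithelial markers outside the set, such as Cdh1, Elf3 and Prss8, had a median of -1.24 with 13 of 16 lower. Fibroblast markers had a median of -1.04 with 6 of 9 lower, and macrophage markers 0.95 with 3 of 6 measured higher and none lower. The counts of groups and lists, here and above, stand beside 14.2% of all measured genes called lower and 9.37% called higher. The share of these cell types in the ratios of keratin and junction genes was not tested.

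**Figure D4:**
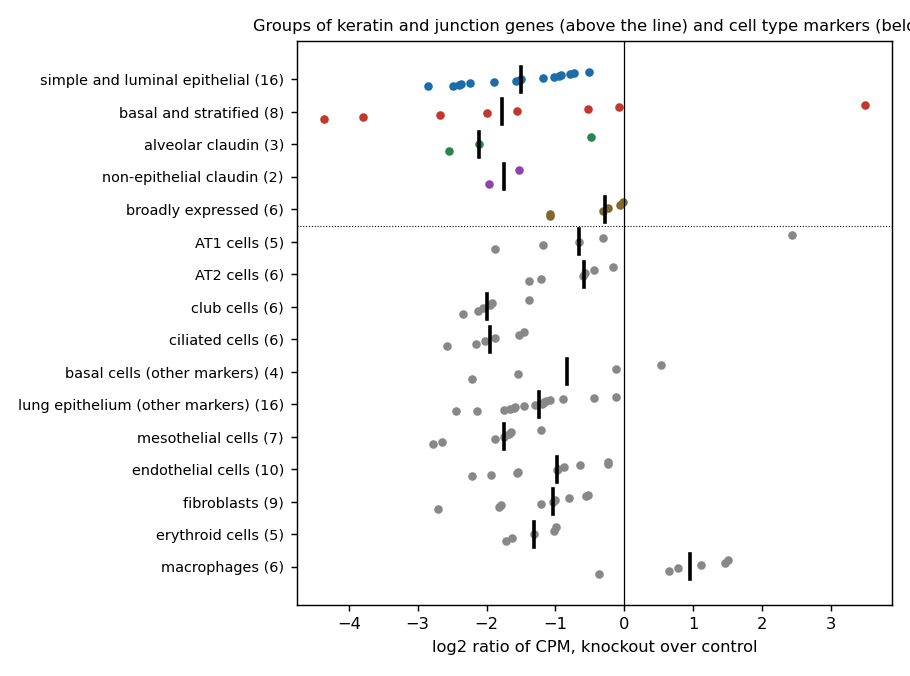
The log2 ratio of CPM, knockout over control, for measured genes of 5 groups of keratin and junction genes (coloured) and of 11 lists of cell type markers (grey), with the number of genes in brackets and a bar at each median. Club cell, ciliated cell, mesothelial and simple epithelial groups have medians between -1.51 and -2.0. Basal cell markers outside the set lie on both sides of 0. AT1 and AT2 markers lie nearer 0, and macrophage markers lie mostly above 0.

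Lists of junction partners outside the set held both called and uncalled genes, given here with their log2 ratios in brackets. Among all measured genes, 14.2% were called lower and 9.37% higher. In the adherens junction list 3 of 12 were lower, Pvrl2 (-1.69), Cdh3 (-1.58) and the epithelial cadherin Cdh1 (-1.17), and the catenins Ctnna1, Ctnnb1 and Ctnnd1 had log2 ratios of 0.18, 0.43 and 0.59. Other tight junction membrane and scaffold genes had a median of -0.79 with 5 of 17 lower, led by the tricellular junction relative Marveld3 (-1.76), the endothelial adhesion gene Esam (-1.54) and Amotl2 (-1.32). Of 12 apical polarity genes 5 were lower, with Crb3 (-2.18), Pard6a (-1.81) and the atypical kinase C gene Prkcz (-1.60) at the front. Hemidesmosome genes, which tie keratin to the basement membrane, had a median of -0.08. In that list 1 of 8 was lower, the integrin Itgb4 at -1.97, which is near the share of all measured genes. Of 5 measured genes of the cornified envelope and plakins 3 were lower, Sprr1a (-1.57), Ppl (-1.46) and Tgm1 (-1.15). Epithelial transcription and splicing factors had a median of -1.16 with 11 of 15 lower, among them Elf3 (-2.14), Ovol2 (-1.79) and Grhl3 (-1.66), and 8 of this list are also in the epithelial marker list. Intermediate filament genes other than keratins had a median of 0.21 with none of 11 lower, and the neurofilament genes Nefl (6.40, on 5 and 353 reads) and Nefm (3.86, on 35 and 387 reads) were called higher. Vim, the filament of mesenchymal cells and macrophages, had a log2 ratio of 0.36.

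The ratios moved with the GC content of transcripts. Over all measured genes the median log2 ratio was 0.58 below 45% GC, -0.53 from 55 to 60% and -0.96 at 60% or more. Of the 14 measured genes of the set at 55% or more, 10 lay from 55 to 60% and 4 above, and each was called lower, where 27.2% and 47.1% of all measured genes in these ranges were. Below 45% none of 7 was lower, against 3.83% of all. After the trends of the ratio on GC content and transcript length were removed, 18 of the 37 were lower, against 10.6% of genes, and the median was -1.03. Of the 22 genes, 16 were still called. Krt5 (-3.70), Krt7 (-2.22), Cldn7 (-2.12), Krt8 (-1.66), Pkp3 (-1.58), Krt18 (-1.57), Cldn4 (-1.43) and Cldn3 (-1.31) were among these. Krt19 (-0.75), Tjp3 (-0.94), Krt78 (-0.98), Cldn23 (-0.67), Cldn5 (-0.50) and Jup (-0.31) were not, while Ocln (-1.36) and Dsc2 (-1.47) were called lower only then. Krt76, at 3.94, was still higher, as 5.55% of genes were. Lower by 4-fold or more were then 5 of the 37, where 10 were before. In the lists of junction, polarity, filament and transcription factor genes outside the set, Pvrl2 (-0.96), Cgn (-0.75), Amotl2 (-0.81), Llgl2 (-0.69), Sprr1a (-0.94), Tgm1 (-0.57), Foxa2 (-0.61) and Nkx2-1 (-0.51) were no longer called, and Pvrl3 (-1.01), Jam2 (-1.16) and Klf5 (-1.11) were called lower only then, as Plec (1.05) and Prph (1.90) were called higher. AT1 and AT2 markers had none called lower, lung epithelial markers 10 of 16 and mesothelial markers 7 of 7.

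**Figure D5:**
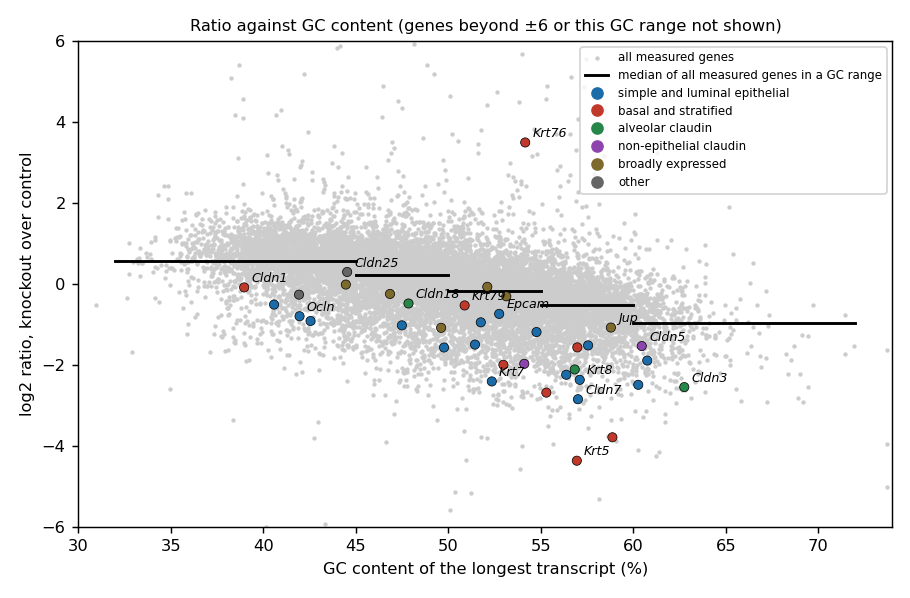
The log2 ratio of CPM, knockout over control, against the GC content of the longest transcript for all measured genes (grey) and the 37 keratin and junction genes (coloured), with black lines at the median of all measured genes in each of 5 GC ranges. Most of the coloured points lie below the median of their range, Krt5 the farthest, and Krt76 lies above it.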

How the data were processed

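RNA of 1 control and 1 knockout library was analysed. The authors deposited estimated read counts and FPKM for every gene, per the file headers, and the submitters' processing notes name TopHat, Cufflinks, GRCm38 and mm10 without roles or versions. Per the labels' protocols, library preparation used the Nextera XT kit. Estimated counts were rounded to whole numbers. Of the genes detected, 73.3% (control) and 70.0% (knockout) had estimates that were not whole within 0.01 reads, and 27 of the 37 measured genes of the set were not whole in at least 1 library, so reads shared with near-identical copies may be split.

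The deposited FPKM equals the estimated count over a length that is the same in both libraries and over the total reads, so it is no independent measurement. Libraries were scaled with TMM (edgeR 4.0.16, R 4.3.3), ratios used a prior count of 0.5, and intervals are exact conditional binomial (scipy 1.17.1). They cover counting error only, since each group has 1 library. Reads that lack molecular identifiers do not stand for independent molecules, so the intervals may be too narrow even for that error. The calculation was tested on simulated data.

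GC content and length came from the longest GENCODE M21 transcript, with lowess trends (span 0.3, statsmodels 0.14.6). All measured genes of the set are named except 1, which is not reported here. Groups, gene lists and motifs were chosen with earlier results of these data known. Alternatives were total-read scaling, DESeq2 1.42.0 size factors, log2 of FPKM plus 1 or 0.1 (at least 1 FPKM in either library), other filters, a prior count of 2, other fold rules and the GC and length correction. Sequences came from RefSeq promoters.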

Additional observations from a re-analysis of the deposited data

How the results depend on the processing

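The count of genes called lower, 22 of 37, stayed between 15 and 27 under every alternative run except the 4-fold rule, with 10, and is read against the share of all measured genes, 14.2%. It was 27 of 39 with total reads (22.1% of all), 15 of 26 at 10 CPM or more (9.41%), 26 of 62 with no filter (10.6%), 21 and 25 of 33 with FPKM plus 1 and plus 0.1 (12.3% and 20.7%), 18 of 37 with the GC and length correction (10.6%), 25 and 10 of 37 with the 1.5-fold and 4-fold rules (23.5% and 2.75%), and 17 of 37 with intervals that exclude 2-fold (6.45%). DESeq2 size factors and a prior count of 2 left the same 22 genes. Krt76 was the only gene called higher, and the count was 0 at 10 CPM or more and with log2 of FPKM plus 1 or plus 0.1, under which it was not measured. Scaling by total reads moved the median of all genes from 0.01 to -0.32, and the median of the alveolar claudins to -2.43 and of the broadly expressed genes to -0.59. With FPKM plus 1 these medians were -2.36 and -0.53, and with plus 0.1 -2.42 and -0.58. The GC and length correction moved the alveolar claudins to -1.31 and the non-epithelial claudins from -1.75 to -1.0. Without a filter the latter stood at -0.80, since Cldn11 and Cldn19 entered. At 10 CPM or more the basal and stratified genes were at -0.53, with 3 genes left. No called ratio changed sign. Among ratios that were not called, Cldn25 turned below 0 with total reads and FPKM, and Pkp4 above 0, at 0.07, with the correction. Of the 37 genes, Dsp, Dsc2, Ocln and Epcam were also called lower with total reads, and Cldn23, Dsg2 and Krt78 were not with FPKM plus 1. FPKM plus 1 or 0.1 also called Epcam and Ocln lower. Low counts limit Krt5, Krt17, Krt76 and Cldn8. No paired analysis was possible because each group has 1 library.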
